A study of Mus musculus with 4 samples.

Results

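The 10 genes described here encode mitochondrial enzymes that break down leucine, valine and isoleucine after the branched-chain keto acid dehydrogenase. They were listed by their place in the pathway, with earlier results of these data known, and each was read by the brightest transcript cluster that carries its symbol alone. All 10 were found among the 22180 genes with such a cluster on the array, and all 10 passed the level filter (a mean above an intensity of 5.81) that 13258 genes passed. The list holds 4 enzymes of the leucine branch (Ivd, Mccc1, Mccc2 and Auh), 4 of the valine branch (Acad8, Hibch, Hibadh and Aldh6a1) and 2 of the isoleucine branch (Acadsb and Hsd17b10).

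Gastrocnemius, a calf muscle, was profiled in 4 groups of mice with 1 Affymetrix array per group. The groups were wild type (WT) given sodium citrate vehicle, WT given streptozotocin (STZ), and mice with a knockout of the transcription factor KLF15 restricted to skeletal muscle (KO), given vehicle or STZ. STZ kills the insulin-producing beta cells, and the 5 daily injections of 50 mg/kg were followed by collection of the muscle 3 weeks later. The sources used here do not give the Cre driver, strain, age, sex or number of mice behind each array. With 1 array per group no test was possible. The differences below describe single arrays, and the error between animals is unknown.

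The carbon skeletons of the 3 branched-chain amino acids share their first steps, a transamination and an oxidative decarboxylation, and then part. Leucine ends in acetoacetate and acetyl-CoA, valine in propionyl-CoA, and isoleucine in both acetyl-CoA and propionyl-CoA. Muscle is a main site of the transamination, and it releases 3-hydroxyisobutyrate, an intermediate of the valine branch. KLF15 is a zinc-finger factor of the Kruppel-like family, whose members bind CACCC and GC-rich elements, and it is known as a regulator of amino acid breakdown in muscle and liver.

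The promoter stretches of 4 enzymes are shown, of which the first 3 stood at least 1.5-fold lower in KO than in WT under STZ. Of the 7 enzymes that did not, only Hibch is shown, which held the most GGGCGG matches of all 10 (5). Among those not shown, Mccc1, Hibadh, Acadsb and Hsd17b10 were also lower on both KO arrays and held 1, 2, 3 and 1 such matches. The stretches come from RefSeq (GRCm38.p6), run 5′ to 3′ toward the start site, and hold bases upstream of the annotated gene. Capitals mark CACCC or GGGCGG on either strand, so that GGGTG and CCGCCC are capitals too.

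Aldh6a1 (chr12:84451025-84451274, minus strand): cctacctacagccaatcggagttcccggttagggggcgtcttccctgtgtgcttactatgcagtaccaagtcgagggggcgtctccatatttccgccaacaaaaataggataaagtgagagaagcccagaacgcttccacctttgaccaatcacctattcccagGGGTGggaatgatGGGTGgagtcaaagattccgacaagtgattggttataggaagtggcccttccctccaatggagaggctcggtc

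Ivd (chr2:118861744-118861958, plus strand): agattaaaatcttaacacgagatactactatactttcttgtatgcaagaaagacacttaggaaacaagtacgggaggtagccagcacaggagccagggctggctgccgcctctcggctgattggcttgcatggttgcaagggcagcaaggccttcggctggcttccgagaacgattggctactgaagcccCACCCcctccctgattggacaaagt

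Mccc2 (chr13:100015640-100015889, minus strand): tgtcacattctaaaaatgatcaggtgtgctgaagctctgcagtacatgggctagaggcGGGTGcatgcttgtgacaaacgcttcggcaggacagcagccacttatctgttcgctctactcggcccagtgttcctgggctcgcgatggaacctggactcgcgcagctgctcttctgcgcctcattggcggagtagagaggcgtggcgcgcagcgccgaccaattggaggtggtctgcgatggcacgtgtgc

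Hibch (chr1:52844788-52845037, plus strand): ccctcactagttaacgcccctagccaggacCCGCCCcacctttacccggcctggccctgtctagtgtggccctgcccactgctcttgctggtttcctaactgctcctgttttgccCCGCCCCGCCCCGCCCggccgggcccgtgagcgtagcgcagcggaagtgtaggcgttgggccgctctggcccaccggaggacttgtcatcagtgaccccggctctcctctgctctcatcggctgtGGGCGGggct

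A promoter was found for all 10 genes, and 250 bases before the start were searched on both strands for the word CACCC, for GGGCGG as a second word and for TNAAGGTCA as another, with overlapping matches counted. GGGCGG had 0 matches in Aldh6a1, Ivd and Mccc2, and from 1 to 5 in each of the other 7 genes. Mccc1, which held 1, was just short of 1.5-fold lower in KO under STZ (-0.58 on the log2 scale). When array medians were aligned it was past 1.5-fold (-0.62), so the split hangs on the cutoff. Hibch held 5, Acad8 and Acadsb held 3 each, and Auh and Hibadh held 2 each. CACCC had 2 matches in the Aldh6a1 window shown and in Mccc1 and Hsd17b10, 1 in Ivd, Mccc2, Acad8 and Hibadh, and 0 in Auh, Hibch and Acadsb. RefSeq gives Aldh6a1 a further start inside the gene, whose window held 0 matches of either word. TNAAGGTCA, a word of estrogen-related receptors, had 0 matches in these windows. Of 32851 mouse promoter windows of the same length, 52.0% held CACCC, 32.7% held GGGCGG and 1.14% held TNAAGGTCA. Among kept genes with a promoter, 62.0% held CACCC and 60.9% held GGGCGG in at least 1 window. The median KO minus WT difference under STZ was -0.055 for genes with GGGCGG and -0.043 for genes without it. For CACCC these medians were -0.041 and -0.065. A match is a string of letters and not a measured binding site, and the split by GGGCGG was noticed after the values were seen.

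Klf15 itself, read by 1 cluster, had an intensity of 50.5 with vehicle and 72.1 with STZ in WT, against 19.8 and 16.04 in KO. Both KO arrays lay below both WT arrays. The sources used here do not say whether that cluster lies in the deleted part. All 10 markers of skeletal muscle fibres, such as Acta1 and Ckm, passed the level filter, and their summed intensity ran from 53672 to 55490 over the 4 arrays. Bright genes as a whole sat lower on the KO STZ array. The 7212 genes above level percentile 75, which include all 10 enzymes, had a median KO minus WT difference of -0.11 under STZ and -0.014 under vehicle, on the scale of log2(intensity + 3.69). Bulk muscle cannot tell fewer cells of a type from less RNA per cell.

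**Figure D1:**
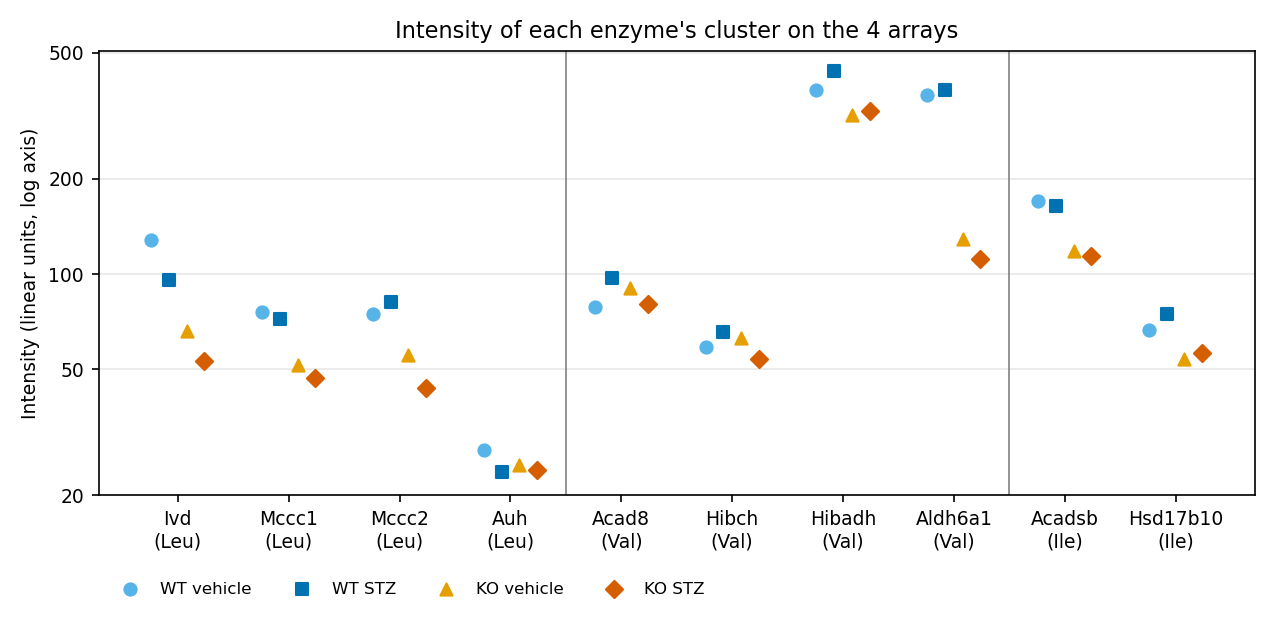
Intensity of the cluster of each enzyme (vertical log axis, linear intensity units) on the 4 arrays, 1 point per array, with leucine, valine and isoleucine enzymes separated by vertical lines. For 7 enzymes both KO points lie below both WT points, with the widest gap for Aldh6a1, and for Auh, Acad8 and Hibch the genotypes overlap; heights are not comparable between genes.

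In vehicle-treated muscle, 8 of the 10 enzymes were below 0 for KO minus WT, as were 50.8% of all genes and 52.8% of those above level percentile 75. The median was -0.35, against -0.0039 over all 13258 genes. Aldh6a1 and Ivd were at least 1.5-fold lower, 2 of 10, where 0.777% of all genes were, and 0 of 10 were at least 1.5-fold higher, where 0.581% of all genes were. Under STZ, 9 of 10 were below 0, against 58.1% of all genes and 68.6% of those above level percentile 75, with a median of -0.47 against -0.048 over all genes. Aldh6a1, Ivd and Mccc2 were at least 1.5-fold lower, 3 of 10, against 2.81% of all genes and 4.08% of those above level percentile 75, and 0 of 10 were at least 1.5-fold higher, against 0.845%. The median under STZ was -0.29 after quantile normalization, with 3 enzymes still 1.5-fold lower.

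For 7 of the 10 enzymes, Ivd, Mccc1, Mccc2, Hibadh, Aldh6a1, Acadsb and Hsd17b10, both KO arrays lay below both WT arrays. Over all genes that order was seen in 23.9%, and among those above level percentile 75 in 30.9%. The 2 KO comparisons share no array. Across the 10 enzymes they had the same sign in 7, with a Pearson r of 0.90 and a Spearman rho of 0.88, or r = 0.74 without Aldh6a1. Over all genes the sign was the same in 56.3%, with r = 0.23, and among those above level percentile 75 in 60.1%, with r = 0.33. These enzymes share a pathway and the same 4 arrays and are not independent points.

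**Figure D2:**
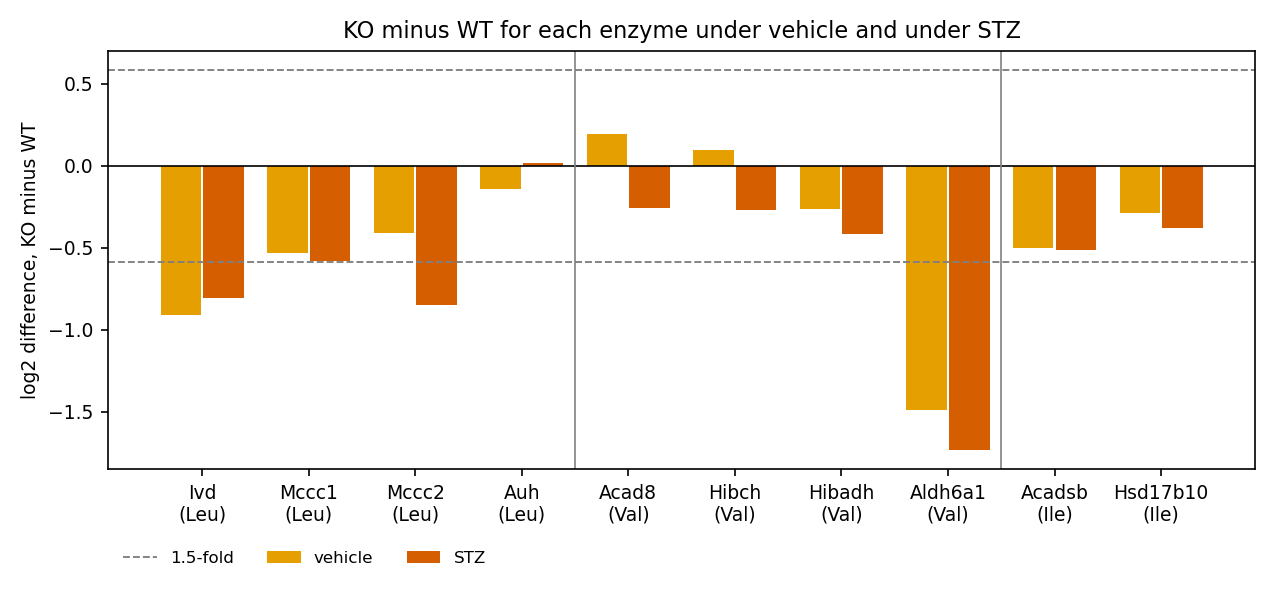
KO minus WT difference of each enzyme on the scale of log2(intensity + 3.69), under vehicle (light bars) and STZ (dark bars), with dashed lines at 1.5-fold. Aldh6a1 reaches -1.49 and -1.74, Ivd lies past the lower line under both treatments and Mccc2 under STZ, while Acad8, Hibch and Auh differ in sign between treatments.

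The leucine branch opens with isovaleryl-CoA dehydrogenase, encoded by Ivd, a flavoenzyme that oxidises isovaleryl-CoA. The intensity of Ivd was 128 with vehicle and 95.4 with STZ in WT, against 66.05 and 53.003 in KO. Both KO arrays were low, and the lower WT array was the one from STZ. KO was at 51.7% of the WT value with vehicle and at 55.5% with STZ, or -0.91 and -0.81 on the log2 scale. From the lowest value up, these differences ranked 19 and 111 among the 13258 genes. The STZ difference of Ivd was -0.67 after quantile normalization.

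The next step adds a carboxyl group through methylcrotonyl-CoA carboxylase, which pairs the biotin-carrying alpha subunit (Mccc1) with the beta subunit (Mccc2). Mccc1 read 76.1 with vehicle and 72.1 with STZ in WT, against 51.5 and 46.96 in KO. Its KO minus WT difference was -0.53 under vehicle and -0.58 under STZ, the latter just short of the 1.5-fold line of 0.585. The STZ difference was past that line (-0.62) when array medians were aligned, and was -0.45 after quantile normalization. Mccc2 read 74.8 with vehicle and 81.5 with STZ in WT, against 55.5 and 43.6 in KO. KO was at 74.1% of the WT value with vehicle and at 53.6% with STZ. The log2 difference was -0.41 and then -0.85, the latter -0.71 after quantile normalization. Both subunits were thus lower on both KO arrays, without overlap with WT. Holocarboxylase synthetase, encoded by Hlcs, attaches biotin to such carboxylases and differed by 0.35 under vehicle and 0.094 under STZ.

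Auh encodes the hydratase that forms hydroxymethylglutaryl-CoA and also binds AU-rich RNA. It read 27.9 with vehicle and 23.7 with STZ in WT, against 24.95 and 24.01 in KO. The genotypes overlapped, and the highest value was that of WT vehicle. The difference was -0.14 under vehicle and 0.014 under STZ, and the sign of the latter turned when array medians were aligned (-0.021).

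The valine branch opens with isobutyryl-CoA dehydrogenase, encoded by Acad8. It read 78.7 with vehicle and 96.9 with STZ in WT, against 90.4 and 80.6 in KO. The highest and the lowest value were both WT arrays. KO minus WT was 0.19 under vehicle and -0.26 under STZ, the latter -0.096 after quantile normalization. Hibch, the hydrolase that frees 3-hydroxyisobutyrate from CoA, showed the same order of signs. Its intensity was 58.7 with vehicle and 65.9 with STZ in WT, against 63.01 and 54.04 in KO. The differences were 0.096 and -0.27, the latter -0.14 after quantile normalization.

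Hibadh encodes the dehydrogenase that turns 3-hydroxyisobutyrate into methylmalonate semialdehyde. It read 381 with vehicle and 438 with STZ in WT, against 317 and 327 in KO. The genotypes did not overlap, but the gap was small. KO was at 83.2% of the WT value with vehicle and at 74.7% with STZ, a log2 difference of -0.26 and -0.42, the latter -0.22 after quantile normalization.

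Aldh6a1 encodes methylmalonate semialdehyde dehydrogenase, which makes propionyl-CoA at the end of the valine branch and also acts in thymine breakdown. It read 368 with vehicle and 381 with STZ in WT, against 129 and 112 in KO. The higher KO array was at 0.349 of the lower WT array. KO was at 34.9% of the WT value with vehicle and at 29.4% with STZ, or -1.49 and -1.74 on the log2 scale. These differences ranked 3 and 6 from the lowest among 13258 genes, and no other of the 10 enzymes was 2-fold lower. The STZ difference of Aldh6a1 was -1.56 after quantile normalization. Aldh6a1 was the only one of the 10 with a further single-symbol cluster. That dimmer cluster read 29.5 with vehicle and 37.96 with STZ in WT, against 11.7 and 9.86 in KO. Its KO arrays stood at 39.6% and 26.0% of WT, so both clusters showed the same order.

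The isoleucine branch opens with the short/branched-chain acyl-CoA dehydrogenase encoded by Acadsb. It read 169 with vehicle and 164 with STZ in WT, against 119 and 114 in KO. Within each genotype the arrays were close, and KO was at 70.02% of the WT value with vehicle and at 69.4% with STZ. The log2 differences were -0.50 and -0.51, the latter -0.35 after quantile normalization. Hsd17b10 encodes the dehydrogenase of 2-methyl-3-hydroxybutyryl-CoA, a protein that is also part of mitochondrial RNase P. It read 66.8 with vehicle and 74.5 with STZ in WT, against 53.9 and 56.4 in KO. KO lay below WT without overlap, at -0.29 under vehicle and -0.38 under STZ, the latter -0.24 after quantile normalization.

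The 3 branches can be set side by side. Under vehicle the median was -0.47 for the 4 leucine enzymes, -0.083 for the 4 valine enzymes and -0.40 for the 2 isoleucine enzymes. All leucine and isoleucine enzymes were below 0 there, but only Hibadh and Aldh6a1 of the valine branch. Without Aldh6a1 the valine median was 0.096. Under STZ the medians were -0.69, -0.34 and -0.45, and -0.56, -0.18 and -0.29 after quantile normalization. The leucine median was the lowest of the 3 and the valine median the highest in both KO comparisons, under each scaling tried. The single largest difference nevertheless belonged to the valine branch. Differences between branches were not tested, because enzymes of a branch are not replicates.

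**Figure D3:**
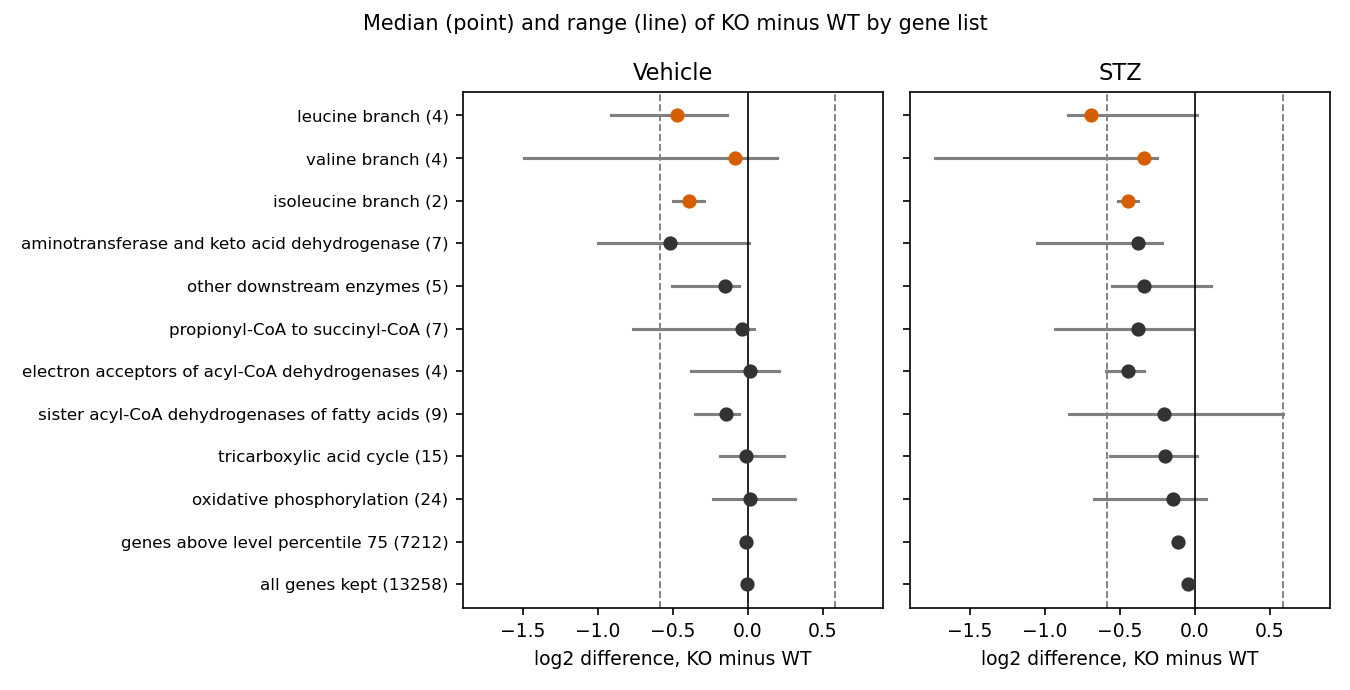
Median (points) of the KO minus WT difference on the scale of log2(intensity + 3.69) under vehicle (left) and STZ (right) for the 3 branches (orange) and for other gene lists (black), with the number of genes in brackets, the range of each list as a line (not drawn for the last 2) and dashed lines at 1.5-fold. Under vehicle the leucine median is -0.47 while tricarboxylic acid cycle and oxidative phosphorylation genes lie at -0.010 and 0.012; under STZ those 2 lists lie at -0.20 and -0.14.

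Upstream of the branches, of 7 kept genes for the aminotransferase, the keto acid dehydrogenase and its regulators, 3 were at least 1.5-fold lower under vehicle and 3 under STZ, and 0 were higher. They were Bcat2, the mitochondrial aminotransferase (-0.64 and -1.06), Bckdhb, the E1 beta subunit (-0.998 and -0.84), and Dbt, the E2 subunit (-0.72 and -0.83). Over all genes, 0.777% were at least 1.5-fold lower under vehicle and 2.81% under STZ. Bckdha, the E1 alpha subunit, differed by -0.52 under vehicle and -0.30 under STZ. Dld, the E3 subunit, differed by -0.037 and -0.38, and Ppm1k, the phosphatase of the complex, by 0.0070 and -0.22. Under STZ all 7 kept genes were below 0, as were 58.1% of all genes. Bcat1 lay below the level filter. Among other enzymes downstream of the keto acid dehydrogenase, the median of 5 kept genes was -0.15 under vehicle and -0.34 under STZ. All 5 were below 0 under vehicle, and 4 were under STZ. Echs1, the enoyl-CoA hydratase of valine and isoleucine breakdown, differed by -0.51 under vehicle and -0.54 under STZ. Acat1, the thiolase that ends the isoleucine branch, differed by -0.39 and -0.55, and Hadha, of fatty acid oxidation, by -0.15 and -0.34. Of the 5 kept genes of that list, 0 passed 1.5-fold in either direction.

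Downstream, propionyl-CoA from valine and isoleucine is turned into succinyl-CoA. Of 7 genes for that route, 1 was at least 1.5-fold lower under vehicle and 2 under STZ, where 0.777% and 2.81% of all genes were. Mmut, the methylmalonyl-CoA mutase, differed by -0.77 and -0.94, while Pcca, a propionyl-CoA carboxylase subunit, differed by -0.037 and -0.019. Pccb, the other subunit of that carboxylase, differed by -0.34 and -0.38, with both KO arrays (193 and 187) below both WT arrays (244 and 245). Mcee, the epimerase, differed by 0.042 under vehicle but -0.86 under STZ. The other 9 acyl-CoA dehydrogenases, which act mostly on fatty acids, had a median of -0.15 under vehicle with 0 past 1.5-fold. All 9 were below 0 under vehicle, and 6 were under STZ. Under STZ their median was -0.21, with Acadl 1.5-fold lower (-0.84) and Acad12 1.5-fold higher (0.59, read at intensities from 7.77 to 13.6). General mitochondrial genes were near 0 under vehicle. The median was -0.010 for 15 tricarboxylic acid cycle genes and 0.012 for 24 oxidative phosphorylation genes, with 0 past 1.5-fold in either list. Under STZ these medians were -0.20 and -0.14, against -0.11 for genes above level percentile 75. In the 2 lists 1 gene, the oxidase subunit Cox7b (-0.67), was 1.5-fold lower, where 2.81% of all genes were. The lowest tricarboxylic acid cycle gene under STZ was Suclg2, at -0.57.

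Summed intensities of markers of other cell types moved between the arrays. The summed intensity of 11 tendon and fibroblast markers, all above the level filter, was 2884 with vehicle and 3146 with STZ in WT, against 3419 and 3462 in KO. Adipocyte markers, of which 6 of 8 were matched and 5 of these passed the level filter, summed to 1093 with vehicle and 1363 with STZ in WT, against 1108 and 882 in KO. The 7 endothelial markers summed to 638, 641, 755 and 706 in that order, and the 8 macrophage markers to 310.2, 379, 343 and 409. Of 5 Schwann cell markers, 2 were matched, and these summed to 217, 178, 186 and 167. No matched marker was at 0, and 0 of 4 erythroid markers were matched. Such sums lean on the brightest genes, with means of 1771 for Dcn (tendon and fibroblast), 951 for Fabp4 (adipocyte) and 332 for Cdh5 (endothelial). The median KO minus WT difference of the 11 tendon and fibroblast markers was 0.38 under vehicle and 0.024 under STZ. Of these 11, 3 were below 0 under vehicle and 4 under STZ, where Dcn was the lowest at -0.24. The part of these cell types in the differences of the enzymes was not tested.

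For STZ against vehicle no enzyme passed 1.5-fold in either genotype. In WT, 6 of 10 were above 0 for STZ minus vehicle, near the 51.5% of all genes and the 56.8% of those above level percentile 75. The median was 0.082, against 0.0076 over all genes, and it was 0.0084 after quantile normalization. In these arrays 0 enzymes were 1.5-fold lower, where 0.445% of all genes were, and 0 were 1.5-fold higher, where 1.27% were. Ivd had the lowest value, -0.41, and Acad8 the highest, 0.29. In WT the leucine branch had a median of -0.14 and the valine branch one of 0.18, with all 4 valine enzymes above 0. The isoleucine branch had a median of 0.054, which turned to -0.011 after quantile normalization. Of the valine enzymes, Aldh6a1 stood at 0.047 and turned to -0.023 after quantile normalization.

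In KO, 8 of 10 enzymes were below 0 for STZ minus vehicle, against 57.0% of all genes and 63.9% of those above level percentile 75. The median was -0.14, against -0.032 over all genes. After quantile normalization 7 of 10 were below 0, with Acadsb at 0.0052, and the median was -0.079. Past 1.5-fold there were 0 enzymes in either direction, where 0.656% of all genes were lower and 0.445% higher. Mccc2 was the lowest at -0.32 and Ivd the next at -0.30, whereas Hsd17b10 was the highest at 0.061. The branch medians were -0.21 for leucine, -0.18 for valine and 0.0023 for isoleucine, the last -0.017 when array medians were aligned. Across the 10 enzymes the STZ effects in WT and KO, which share no array, had the same sign in 6, with a Pearson r of 0.26 and a Spearman rho of 0.15, where 51.1% of all genes had the same sign. Ivd was lower with STZ on the arrays of both genotypes, at 74.7% of vehicle in WT and 80.2% in KO.

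**Figure D4:**
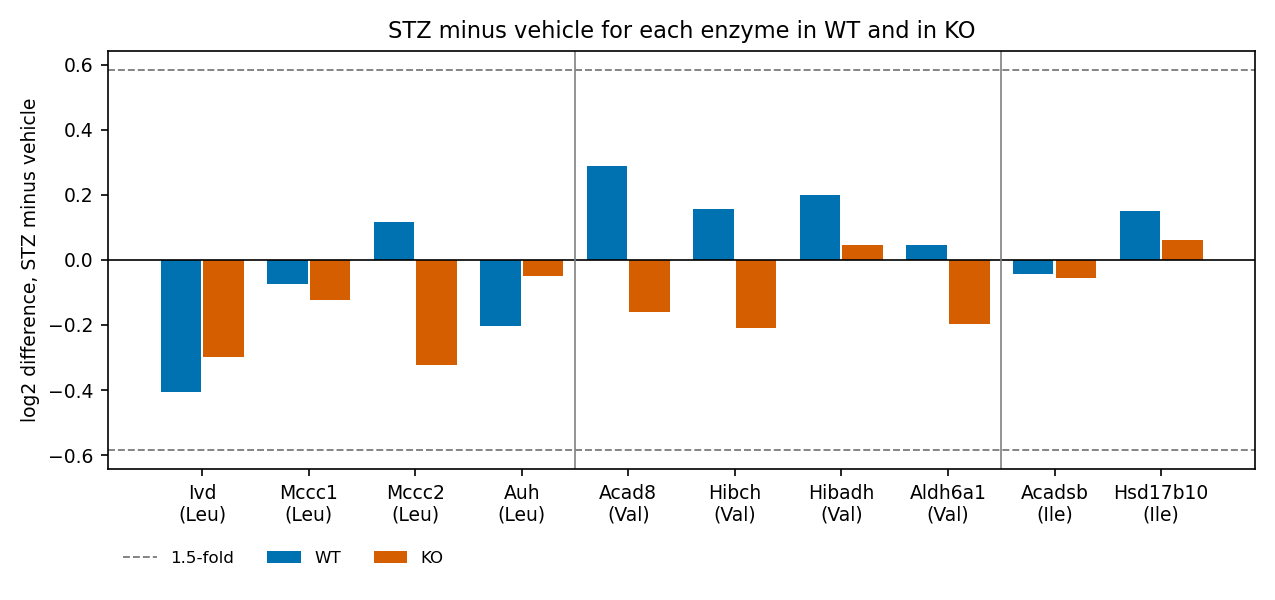
STZ minus vehicle difference of each enzyme on the scale of log2(intensity + 3.69) in WT (blue bars) and KO (red-orange bars), with dashed lines at 1.5-fold. No bar reaches a dashed line; Ivd is below 0 in both genotypes, and Mccc2, Acad8, Hibch and Aldh6a1 are above 0 in WT and below 0 in KO.

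The difference between STZ effects, KO minus WT, used all 4 arrays. Its median over the 10 enzymes was -0.12, against -0.048 over all genes, and it was 0.013 after quantile normalization, so no direction is drawn for the group. It passed 1.5-fold for 0 enzymes in either direction, where 3.91% of all genes did on the lower side and 1.76% on the higher. The valine branch had a median of -0.30, which was -0.17 after quantile normalization. All 4 of its enzymes were below 0, as were 57.1% of all genes and 65.8% of those above level percentile 75. Acad8 (-0.45), Mccc2 (-0.44) and Hibch (-0.36) had the lowest values. The leucine branch had a median of 0.028 and the isoleucine branch one of -0.051, the latter 0.076 after quantile normalization.

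Among the kept genes outside the 10, those nearest to Aldh6a1 over the 4 arrays were Gstk1, Klf15, Aldh2, Egr1 and Wnt4. Nearness was the Euclidean distance between log2 values centred on the mean of each gene, and the centred values of Aldh6a1 themselves had a length of 1.62. Gstk1, a glutathione transferase, lay at 0.093, with intensities of 181 with vehicle and 199 with STZ in WT, against 67.4 and 58.3 in KO. Klf15 followed at 0.31 and Aldh2, the mitochondrial aldehyde dehydrogenase, at 0.66. Nearness over 4 arrays is a description and has no test.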

How the data were processed

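Total RNA of gastrocnemius was hybridised to 4 Affymetrix arrays, 1 per group, per the labels' protocols. The deposited values are linear intensities of 41345 transcript clusters. The sources used here do not give their background correction, summary method, scaling or genome build. Groups followed the sample titles. Clusters with 1 gene symbol in the platform annotation (23521) gave 22180 genes, each read by its brightest cluster. Intensities became log2(intensity + 3.69), the offset being percentile 25 of all values, which understates changes of dim genes. Array medians lay within 0.035 on this scale, and no scaling was added. Genes with a mean above the median of all clusters were kept. Counts past 1.5-fold replaced tests. The enzymes and lists were chosen with earlier results of these data known. Named were all 10 enzymes, Klf15, genes of the other pathway lists past 1.5-fold in a KO comparison, and the 5 genes nearest to Aldh6a1. Genes among the 3 largest differences of their list were named only in part, and Etfbkmt, for example, was left out. Bcat1, Bckdha, Dld, Ppm1k, Pcca, Pccb and Etfb were named outside these rules, with their values known. Alternatives were 3 scalings, 2 offsets, the mean of all clusters and 2 level filters. Counting and scaling were tested on simulated data. Python 3.11.15, pandas 2.3.3 and statsmodels 0.14.6 were used.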

Additional observations from a re-analysis of the deposited data

Results flagged for a closer look

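For 4 of the 10 enzymes the STZ array lay above the vehicle array in WT and below it in KO. Subtracting the WT effect of STZ from the KO effect gave -0.44 on the log2 scale for Mccc2 (0.12 in WT and -0.32 in KO), -0.45 for Acad8 (0.29 and -0.16), -0.36 for Hibch (0.16 and -0.21) and -0.24 for Aldh6a1 (0.047 and -0.20). With 1 array per group the difference between genotypes was not tested, and opposite signs were seen in 48.5% of all kept genes. For Aldh6a1 the WT effect was -0.023 after quantile normalization, which ends the opposition. With the mean of both its clusters the WT effect was instead 0.19 and the difference -0.38, and the dimmer cluster alone stood at 0.33 in WT and -0.18 in KO. The brighter genes as a whole had medians of 0.035 in WT and -0.063 in KO for STZ minus vehicle, and their part in these differences was not tested.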

How the results depend on the processing

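No alternative reversed a difference past 1.5-fold for any of the 10 enzymes, and 7 of 10 had both KO arrays below both WT arrays under each of the 3 scalings, while offsets and level filters could not change that count. Enzymes at least 1.5-fold lower numbered 2 under vehicle in each alternative, and 3 or 4 under STZ. Quantile normalization and removal of a loess trend changed the summaries that use the KO STZ and WT STZ arrays. For KO minus WT under STZ, the median of the enzymes was -0.29 after quantile normalization and -0.32 after loess. The leucine, valine and isoleucine medians were -0.56, -0.18 and -0.29 after quantile normalization, and -0.58, -0.21 and -0.32 after loess. For the difference between STZ effects, the median of the enzymes was 0.013 after quantile normalization and -0.018 after loess. The leucine median was 0.14 after quantile normalization, the valine median -0.17 and -0.20 after loess, and the isoleucine median 0.076 and 0.051 after loess. The cause was not tested. Of 248 summary values under the alternatives, the other 233 moved by at most 0.1 on the log2 scale or stayed within 1.5 times for counts. Of 400 values of single enzymes, 363 moved by at most 0.1 and stayed on their side of 1.5-fold. Both counts include values that could not change. The 2 level filters kept all 10 enzymes and so left every value as it was. The mean of all clusters could change only values that use Aldh6a1. No replicate could be left out and no paired analysis was possible because each group has 1 array. The number of arrays limits the precision.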

Other observations

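The acyl-CoA dehydrogenases of all 3 branches pass electrons to the electron transfer flavoprotein. Etfdh, the oxidoreductase that hands electrons on to ubiquinone, read 359 with vehicle and 470.2 with STZ in WT, against 388 and 331 in KO. Etfa, the alpha subunit, read 425, 514, 402 and 339.9 in that order. In both genes WT STZ was the highest array and KO STZ the lowest, and the share of all genes with these extremes was not counted. KO minus WT was 0.11 for Etfdh and -0.078 for Etfa under vehicle, and -0.50 and -0.59 under STZ. Etfb, the beta subunit, lay below both WT arrays on both KO arrays, at -0.38 and -0.39. Etfb was named after its values were seen.

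Mcee, the epimerase on the route from propionyl-CoA to succinyl-CoA, had the same order of arrays as Etfdh and as Hibch of the valine branch. It read 91.6 with vehicle and 129 with STZ in WT, against 94.4 and 69.6 in KO. STZ minus vehicle was 0.48 in WT and -0.42 in KO. That difference between STZ effects, -0.90, was past 1.5-fold, where 3.91% of all genes were on that side. The share of all genes with this order of arrays was not counted. Cox7b, of oxidative phosphorylation, had the same order, at 599 and 875 in WT and 605 and 549 in KO. Genes above level percentile 75 had medians of 0.035 in WT and -0.063 in KO for STZ minus vehicle.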
